A study of Mus musculus with 24 samples.

Results

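The question here was whether losing Klotho changes the male mouse aorta by a different amount when the Bmp2 gene carries the ∆UCS allele. The quantity measured was a difference of differences for each gene: the Kl/Kl minus control change in ∆UCS males, minus the Kl/Kl minus control change in Bmp2+/+ males, on a log2 scale. A positive value means that the Kl/Kl change was more upward (or less downward) with ∆UCS, and a negative value means the opposite. It rests on 15 of the 24 libraries of the series, which the rule behind the comparison names by library, with no use of the genes compared. These are 4 Bmp2+/+ controls, 3 Bmp2+/+ Kl/Kl, 4 ∆UCS controls and 4 ∆UCS Kl/Kl, each the aorta of 1 male aged 44 to 48 days. The male Bmp2+/+ Kl/Kl replicate 1 is not among them, because its sex-linked transcripts went against its label, so the Bmp2+/+ Kl/Kl replicates are numbers 2, 3 and 4.

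All mice were congenic on 129S1/SvlmJ and came from crosses of heterozygous parents. Kl/Kl mice were homozygous for the recessive Klotho mutation and are labelled as having renal disease. The controls are labelled as having healthy kidneys. Every control was Klotho+/Kl except Bmp2+/+ control replicate 1, which was Klotho+/+. The ∆UCS mice were homozygous for that allele (Bmp2∆UCS/∆UCS), and the labels do not say what it changes in the gene. Every Kl/Kl mouse was also a renal disease mouse, so Klotho genotype and kidney disease cannot be told apart. The labels describe separate animals, and p-values measure the spread between them.

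Klotho is made mainly in the kidney, where it serves as the co-receptor through which the bone hormone FGF23 promotes phosphate excretion. Mice without it retain phosphate, age early and calcify their arteries. BMP2 is a secreted ligand of the TGF-beta superfamily. It binds type I and type II serine/threonine kinase receptors, which phosphorylate Smad1, Smad5 and Smad9 and switch on targets such as the Id genes, and secreted antagonists such as gremlin and noggin hold it back. In the artery wall, BMP2 is known for driving smooth muscle cells towards a bone-like state.

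Expression was measured by RNA sequencing and is given as deposited TPM (transcript abundance scaled by gene length and library total). These values cannot be compared between genes. Between libraries, a gene's value is relative to a total that includes mitochondrial transcripts, so it also depends on their share. Estimated depth was 32228000 to 50806000 reads per male library. Transcripts of the mitochondrial genome made up 47.3% to 58.6% of all TPM in Bmp2+/+ controls, 40.2% to 55.8% in Bmp2+/+ Kl/Kl, 53.5% to 61.2% in ∆UCS controls and 40.9% to 52.5% in ∆UCS Kl/Kl. Only in ∆UCS males did the Kl/Kl range lie wholly below the control range, and the part of this share in the results below was not tested. Library names follow 2 spellings, and all ∆UCS libraries share 1 of them. Of the Bmp2+/+ libraries, 2 of 4 controls and 2 of 3 Kl/Kl are spelled that way, and Bmp2+/+ Kl/Kl replicate 4 is the only male Kl/Kl library of the other spelling. Smooth muscle, endothelial and fibroblast markers were present in all 15 libraries, with Acta2, smooth muscle actin, at 24.3 to 212 TPM. None of the markers of other cells was at 0 reads in any of them, and genes of airway, skeletal muscle, heart and fat are described further on.

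Bmp2 itself (ENSMUSG00000027358, mm39 chromosome 2, 133394079 to 133404805, plus strand) was low in every group, at 72 to 399 estimated reads per library. Its TPM was 0.465, 0.292, 0.391 and 0.24 in Bmp2+/+ controls and 0.637, 0.166 and 0.376 in Bmp2+/+ Kl/Kl. It was 0.185, 0.287, 0.312 and 0.484 in ∆UCS controls and 0.381, 1.17, 0.403 and 0.296 in ∆UCS Kl/Kl. All 4 groups overlapped, and 1 library, ∆UCS Kl/Kl replicate 2, stood above the rest. Bmp2 fell below the abundance filter for testing. With no filter its difference between the Kl/Kl changes was 0.20 (SE 0.23, limma Benjamini-Hochberg adjusted p = 0.941). Kl (ENSMUSG00000058488, on the plus strand of mm39 chromosome 5 from 150876072 to 150917282), the gene mutated in Kl/Kl mice, had 0 to 30 estimated reads per library, so it does not check the Klotho labels in this tissue. Its TPM was 0.00393 to 0.0124 in Bmp2+/+ controls, 8.46e-08 to 0.0102 in Bmp2+/+ Kl/Kl, 0.00557 to 0.0175 in ∆UCS controls and 0.00082 to 0.00787 in ∆UCS Kl/Kl, with all groups overlapping.

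No gene passed the test of the difference. Limma called 0 of 9861 genes (0.0%) at a Benjamini-Hochberg adjusted p under 0.05, and the smallest adjusted p was 0.954. With no adjustment, 204 genes (2.07%) had a p under 0.05, 106 of them higher (1.07%) and 98 lower (0.994%) in the ∆UCS arm relative to the Bmp2+/+ arm. Under median-of-ratios scaling 225 were higher and 315 lower. The split turned on single libraries, with 17 higher and 312 lower without Bmp2+/+ Kl/Kl replicate 3, and 827 higher and 105 lower without replicate 4. Limma voom on estimated reads also called 0, and so did each of the other 35 settings tried. The missing calls do not show that the arms responded alike. The 95% interval of a gene's difference had a median half-width of 0.79 on the log2 scale (interquartile range 0.61 to 1.06). It lay wholly within 1 log2 unit of 0 for 4346 genes (44.1%) and within 2 units for 8717 (88.4%).

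Across all genes the difference leaned upward, with a median of 0.16 and 67.3% of genes positive. The median Kl/Kl change was 0.26 in the ∆UCS arm and 0.09 in the Bmp2+/+ arm. Under median-of-ratios scaling the median difference was 0.09, and the median changes were 0.06 in the ∆UCS arm and -0.04 in the Bmp2+/+ arm. The median difference also turned on single libraries. It was -0.07 without Bmp2+/+ Kl/Kl replicate 3 and 0.34 without replicate 4. A single gene's difference is therefore read against this shift, and in bulk tissue fewer cells of a type and less RNA per cell cannot be told apart.

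**Figure D1:**
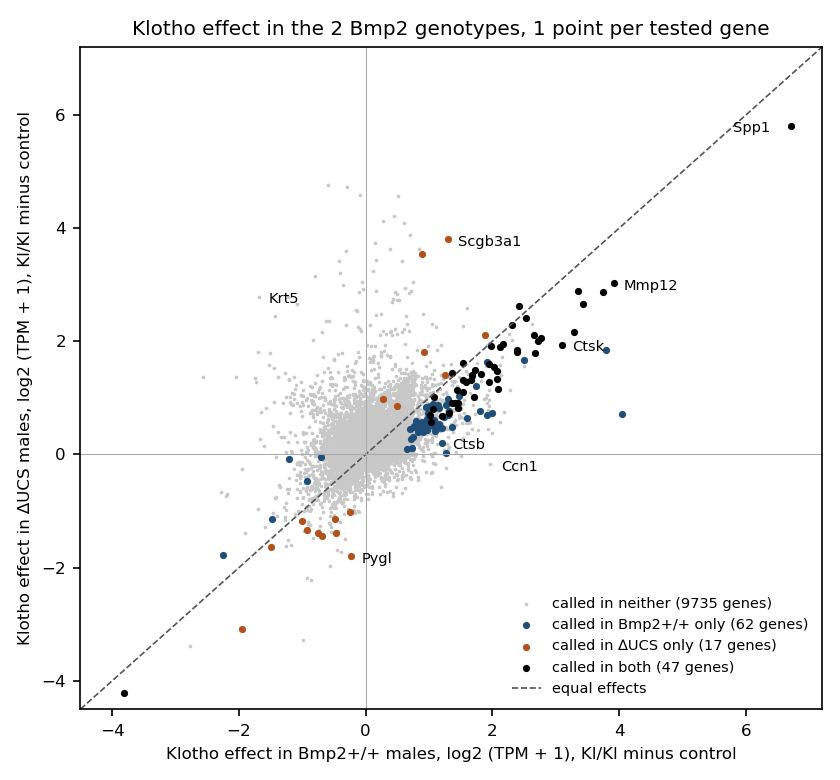
Each point is 1 of the 9861 tested genes, with the log2 Kl/Kl minus control change in Bmp2+/+ males on the x axis and in ∆UCS males on the y axis, and the diagonal marks equal change. Colours mark the 47 genes called in both arms, 62 in Bmp2+/+ alone and 17 in ∆UCS alone. Spp1, Mmp12, Ctsk and Ctsb lie under the diagonal, and Krt5 and Scgb3a1 lie above it.

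Each arm on its own gave calls. In Bmp2+/+ males limma called 103 genes higher (1.04%) and 6 lower (0.0608%) in Kl/Kl, and in ∆UCS males 53 higher (0.537%) and 11 lower (0.112%). Under median-of-ratios scaling the ∆UCS arm had 89 higher and 77 lower. With all 24 libraries as labelled neither arm had a call. Of these, 47 genes were called in both arms, all 47 in the same direction. The other 62 called with Bmp2+/+ all had the same sign with ∆UCS, and the 17 called with ∆UCS alone all had the same sign with Bmp2+/+. Most tested genes leaned upward in either arm, with 61.5% positive with Bmp2+/+ and 82.1% with ∆UCS. A call in 1 arm and not in the other does not show a difference.

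A list of Klotho-responsive genes was taken from the females, whose libraries are not part of the difference. Males and females share the abundance filter and the estimate of spread, so the male libraries still bear on which genes are called: female calls numbered 605 without male Bmp2+/+ Kl/Kl replicate 3, against 259. In Bmp2+/+ females aged 45 to 53 days, 3 Kl/Kl against 4 Klotho+/Kl controls, limma called 257 genes higher (2.61%) and 2 lower (0.0203%), or 218 and 131 under median-of-ratios scaling. Of the 257, 250 had a positive Kl/Kl change in both male arms. Over all tested genes, 61.5% were positive with Bmp2+/+ and 82.1% with ∆UCS. The median change of the 257 was 0.84 with Bmp2+/+ and 0.63 with ∆UCS. The difference was negative for 180 of the 257 (70.0%), beside 32.7% of all tested genes, with a median of -0.20 beside 0.16. At an unadjusted p under 0.05, 23 were lower (8.95%, beside 0.994% of all genes) and 6 higher. Its median moved with that of all genes when a library was left out: 0.04 beside 0.34 without Bmp2+/+ Kl/Kl replicate 4, and -0.42 beside -0.07 without replicate 3. It was below the median of all genes without each of the 15 male libraries in turn, and with only the libraries of the ∆UCS spelling it was 0.08 beside 0.36. These are counts over genes that share libraries and no test of the list.

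The genes with the smallest p among those lower in the ∆UCS arm included several lysosomal and macrophage genes. Genes of either direction picked by that p tend to have groups apart and intervals without 0. Such features add no separate support for a difference. Ctsb (ENSMUSG00000021939, mm39 chromosome 14, 63359911 to 63383372, plus strand) encodes the lysosomal protease cathepsin B. It stood at 35.7, 31.1, 31.6 and 21.7 TPM in Bmp2+/+ controls and at 86.8, 61.8 and 67.2 TPM in Bmp2+/+ Kl/Kl. With ∆UCS it was 36.0, 32.3, 41.7 and 38.2 TPM in controls and 43.5, 49.2, 46.6 and 32.4 TPM in Kl/Kl. The Bmp2+/+ Kl/Kl libraries all lay above the other 12, whereas the ∆UCS Kl/Kl libraries overlapped their controls. Ctsb rose by 1.2 in Bmp2+/+ males (limma adjusted p = 0.00182), and its change in ∆UCS males was 0.20 (limma adjusted p = 0.519). The difference was -1.0 (95% interval -1.55 to -0.45, limma unadjusted p = 0.00127, adjusted p = 0.954). Leaving out any 1 library moved it between -1.15 and -0.87.

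Ctsk (ENSMUSG00000028111, mm39 chromosome 3, 95406567 to 95416673, plus strand) encodes cathepsin K, the collagen-degrading protease of osteoclasts that macrophages also make. Its levels were 2.36, 1.51, 2.24 and 1.17 TPM in Bmp2+/+ controls and 24, 18.6 and 27.8 TPM in Bmp2+/+ Kl/Kl. With ∆UCS they were 1.77, 1.49, 2.69 and 3.13 TPM in controls and 9.86, 13.7, 18.3 and 6.29 TPM in Kl/Kl. Both Kl/Kl groups stood clear of their controls, and every ∆UCS Kl/Kl library lay under every Bmp2+/+ Kl/Kl library. The rise was 3.1 with Bmp2+/+ (limma adjusted p = 5.18e-06) and 1.93 with ∆UCS (limma adjusted p = 0.000907), a difference of -1.16 (95% interval -2.02 to -0.31, limma adjusted p = 0.954).

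C3ar1, the receptor for the complement fragment C3a, had the same order of groups. It was 0.698, 0.297, 0.31 and 0.303 TPM in Bmp2+/+ controls and 7.76, 4.04 and 4.14 TPM in Bmp2+/+ Kl/Kl. It was 0.469, 0.301, 0.577 and 0.517 TPM in ∆UCS controls and 2.39, 2.4, 3.38 and 1.24 TPM in ∆UCS Kl/Kl. The Kl/Kl groups again did not overlap each other or their controls. Its difference was -0.93 (95% interval -1.57 to -0.29), and the rise was called in both arms. Dpep2, a membrane dipeptidase, was 4.77 to 8.48 TPM in Bmp2+/+ Kl/Kl and 1.49 to 4.48 TPM in ∆UCS Kl/Kl, a difference of -0.87 between rises of 2.66 and 1.79 that limma called in both arms.

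Ccn1 (ENSMUSG00000028195, mm39 chromosome 3, 145352731 to 145355736, minus strand) encodes a matricellular protein induced by mechanical and growth factor signals. Bmp2+/+ controls had 17.2, 7.36, 14.0 and 13.2 TPM and Bmp2+/+ Kl/Kl 44.5, 38.5 and 79.1 TPM. The ∆UCS controls had 27.6, 32.1, 55.0 and 20.0 TPM and ∆UCS Kl/Kl 81.7, 22.1, 15.4 and 20.8 TPM. Here the control groups themselves did not overlap, with every ∆UCS control above every Bmp2+/+ control. The Ccn1 difference was -2.14 (95% interval -3.71 to -0.58), and limma called it in neither arm. Cdo1, which encodes cysteine dioxygenase, had 58, 74.3 and 72.9 TPM in Bmp2+/+ Kl/Kl and 38.6, 45.8, 54.6 and 26.7 TPM in ∆UCS Kl/Kl, which do not overlap, and a difference of -1.0 (95% interval -1.64 to -0.36).

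The remaining 4 of the 10 genes with the smallest p in this direction were Fam13a, Cav2, Tm4sf1 and Pygl. Fam13a, a gene expressed in fat cells, had a difference of -1.53, Cav2, a caveolin, -0.94, and Tm4sf1, a tetraspanin-like surface protein of endothelium, -1.08, or -0.70 without Bmp2+/+ Kl/Kl replicate 4. Pygl, the liver form of glycogen phosphorylase, had another pattern. It fell by 1.80 in ∆UCS males (limma adjusted p = 0.0297), from 7.04 to 16.9 TPM in controls to 1.25 to 4.14 TPM in Kl/Kl, while its Bmp2+/+ groups overlapped and its change there was -0.23. Its difference was -1.57 (95% interval -2.74 to -0.39).

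**Figure D2:**
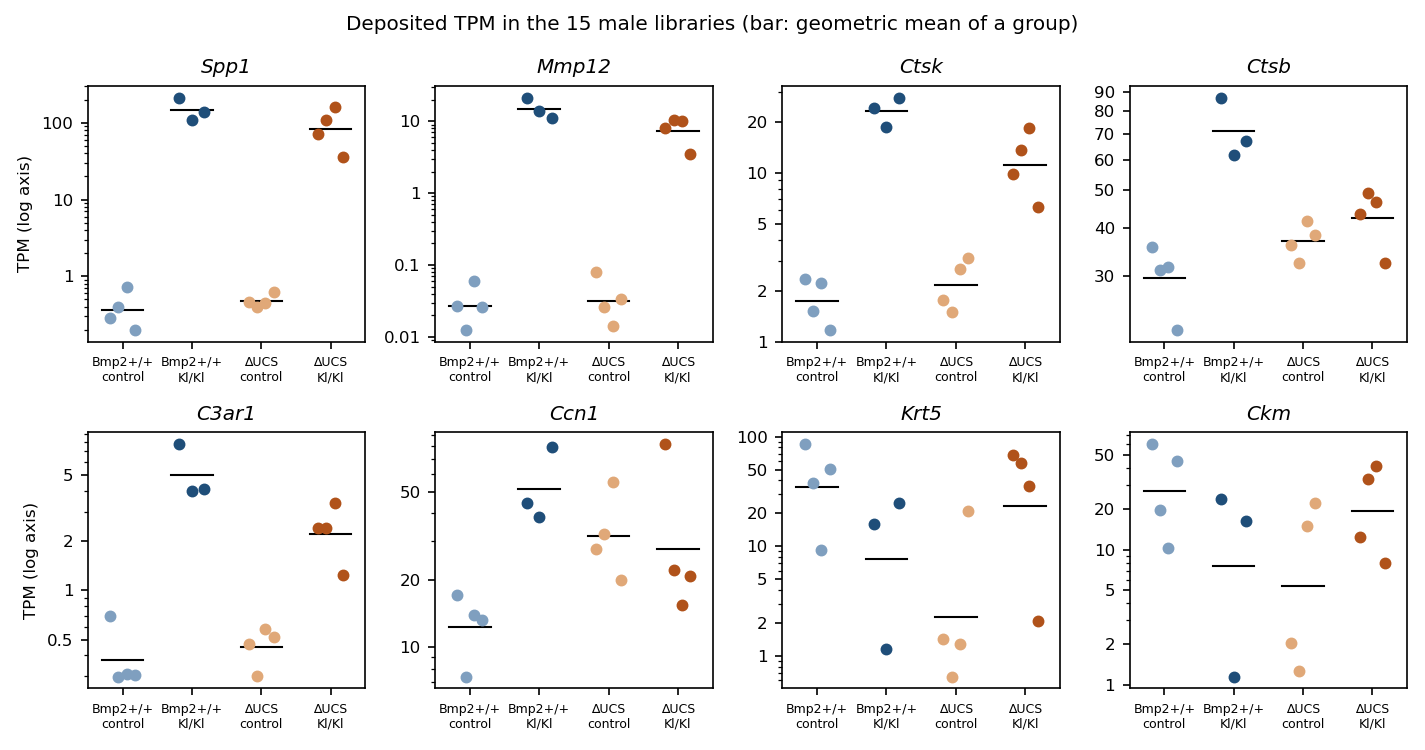
TPM in each of the 15 libraries by group, on log axes, for genes described in the text, with 1 point per library and a bar at the geometric mean of the group. Ctsb and Ctsk in ∆UCS Kl/Kl lie below Bmp2+/+ Kl/Kl without overlap, whereas the Spp1 values of the 2 Kl/Kl groups overlap (110 to 212 TPM and 35.3 to 160 TPM).

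The genes with the largest fold in Kl/Kl females showed how the 2 male arms handled the strongest responders. Spp1 (ENSMUSG00000029304, mm39 chromosome 5, 104582984 to 104588916, plus strand) encodes osteopontin, a secreted mineral-binding phosphoprotein. It was 0.291, 0.399, 0.723 and 0.199 TPM in Bmp2+/+ controls against 212, 110 and 137 TPM in Kl/Kl. With ∆UCS it was 0.462, 0.4, 0.447 and 0.624 TPM in controls against 72, 110, 160 and 35.3 TPM in Kl/Kl. Every Kl/Kl library exceeded every control in both arms, and the 2 Kl/Kl groups overlapped. Spp1 rose by 6.71 with Bmp2+/+ (limma adjusted p = 1.62e-07) and by 5.81 with ∆UCS (limma adjusted p = 7.91e-07). The difference of -0.90 had a 95% interval of -2.27 to 0.47, which includes 0, and it was -0.51 without ∆UCS Kl/Kl replicate 4.

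Mmp12, the macrophage elastase, was 0.0124 to 0.0604 TPM in Bmp2+/+ controls and 21.4, 14.0 and 11.2 TPM in Bmp2+/+ Kl/Kl. It was 0.0144 to 0.0796 TPM in ∆UCS controls and 8.11, 10.3, 10.0 and 3.47 TPM in ∆UCS Kl/Kl, with every value under the Bmp2+/+ Kl/Kl ones. The rises of 3.91 and 3.02, both called by limma, differed by -0.89 (95% interval -1.69 to -0.09, limma unadjusted p = 0.0311), or -0.58 without ∆UCS Kl/Kl replicate 4. Gpnmb, a glycoprotein of lipid-laden macrophages and osteoclasts, rose by 3.74 and 2.87 in the same order, with a difference of -0.87 that ran from -1.35 without Bmp2+/+ Kl/Kl replicate 3 to -0.40 without ∆UCS Kl/Kl replicate 4. Its Kl/Kl values overlapped, at 6.5 to 22.7 TPM with Bmp2+/+ and 2.14 to 13.7 TPM with ∆UCS.

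Cd68, a lysosomal glycoprotein that marks macrophages, was 5.73, 1.58, 5.98 and 1.57 TPM in Bmp2+/+ controls and 68.2, 23.7 and 57.4 TPM in Bmp2+/+ Kl/Kl. It was 2.19, 2.65, 2.63 and 4.58 TPM in ∆UCS controls and 35.2, 31.8, 34.6 and 15.9 TPM in ∆UCS Kl/Kl. The Kl/Kl groups overlapped, since Bmp2+/+ replicate 3 lay among the ∆UCS values, and without Bmp2+/+ replicate 4 the difference of -0.47 became 0.30. Mpeg1, the macrophage pore protein perforin-2, had 71.9, 57.6 and 60.6 TPM in Bmp2+/+ Kl/Kl and 47.5, 36.5, 39.2 and 6.76 TPM in ∆UCS Kl/Kl, with no overlap. Its difference of -0.78 was -0.13 without Bmp2+/+ Kl/Kl replicate 4 and -1.18 without Bmp2+/+ control replicate 3. Lilr4b, an inhibitory leukocyte receptor, had -1.12 (-0.73 without ∆UCS Kl/Kl replicate 4). Lyz2, macrophage lysozyme, had -0.13, which became 0.63 without Bmp2+/+ Kl/Kl replicate 4. Lyz2 and Lilr4b have near-identical copies in the genome, so their values are uncertain. Ccl8, a monocyte chemokine, had 0.22, or -0.36 without Bmp2+/+ Kl/Kl replicate 3, with Kl/Kl values of 2.17 to 10.1 TPM and 2.94 to 12.9 TPM.

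The remaining female-chosen genes, Scgb3a1 and Reg3g, are products of airway and gut epithelium and were higher in the ∆UCS arm. Reg3g, a secreted antibacterial lectin, was 15.9, 8.59, 34.0 and 12.3 TPM in Bmp2+/+ controls and 120, 25.3 and 14.0 TPM in Bmp2+/+ Kl/Kl. With ∆UCS it was 0.265, 5.59, 10.0 and 10.6 TPM in controls and 51.5, 71.3, 86.7 and 58.1 TPM in Kl/Kl. It rose by 3.54 with ∆UCS (limma adjusted p = 0.00391), its Bmp2+/+ change was 0.89, and the difference was 2.65 (95% interval 0.82 to 4.49). ∆UCS control replicate 1 was the lowest library for Reg3g, and without it the difference was 1.93. Scgb3a1, a secretoglobin, was 2.61 TPM in that library against 65.0 to 96.9 TPM in the other ∆UCS controls, and its difference of 2.50 became 1.38 without it.

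The BMP pathway was described through 65 genes in 4 lists, of which 33 passed the abundance filter and 31 of the 64 found in the table did not. None of the 33 was called for the difference (0.0% of all genes were). At an unadjusted p under 0.05, 1 was higher and 3 were lower (1.07% and 0.994% of all genes), and the interval of the other 29 included 0. Their median difference was -0.10, beside 0.16 for all genes. Only Hamp2 was called in an arm, higher in Bmp2+/+ Kl/Kl. Of the 31 members under the filter, 30 could be fitted by limma voom on estimated reads, which called 0 of them. It gave 3 of the 30 an unadjusted p under 0.05, beside 1861 of all 22306 genes it fitted, which is a similar share.

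Among the ligands, 7 of 16 were tested, with differences of -0.53 to 0.29 and a median of -0.09 that became 0.03 without Bmp2+/+ control replicate 3. Inhba, which encodes an activin subunit, was the lowest. It was 1.19, 1.02, 1.08 and 0.383 TPM in Bmp2+/+ controls, 3.49, 1.41 and 2.43 TPM in Bmp2+/+ Kl/Kl, 1.13, 0.883, 1.72 and 1.31 TPM in ∆UCS controls and 1.06, 2.35, 1.77 and 1.71 TPM in ∆UCS Kl/Kl. Only the Bmp2+/+ groups were apart, and limma called neither arm. Bmp4, the ligand closest to BMP2, was 1.27 to 4.98 TPM in Bmp2+/+ Kl/Kl and 1.93 to 2.14 TPM in ∆UCS Kl/Kl, with controls at 0.874 to 2.9 and 1.63 to 2.67 TPM. Its difference was -0.41 (95% interval -1.14 to 0.32), with all groups overlapping. Bmp7, under the filter at no more than 0.152 TPM, had a voom difference of 2.39 (SE 0.85, adjusted p = 0.593).

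The tested receptors numbered 6 of 13, with a median difference of 0.15 that became -0.12 without Bmp2+/+ Kl/Kl replicate 3. The type I receptor Bmpr1a had -0.31, the type II receptor Bmpr2 -0.10, and the endothelial receptors Acvrl1 and Eng 0.15 and 0.36, each with overlapping groups. Without Bmp2+/+ Kl/Kl replicate 3, Acvrl1 had -0.27 and Eng -0.06. Hjv, hemojuvelin, a BMP co-receptor of muscle and liver, had 1.60 (95% interval 0.02 to 3.17). Its TPM was 3.2 to 7.41 in Bmp2+/+ controls, 0.319 to 4.29 in Bmp2+/+ Kl/Kl, 0.276 to 4.83 in ∆UCS controls and 0.728 to 6.57 in ∆UCS Kl/Kl, and skeletal muscle genes, described further on, had positive differences as well. Their part in the Hjv value was not tested.

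Of the antagonists, 9 of 18 were tested, 6 of them negative, with a median difference of -0.38 that became -0.12 without Bmp2+/+ Kl/Kl replicate 4. Fstl1, a secreted follistatin-like glycoprotein, was 6.83, 4.4, 5.38 and 3.33 TPM in Bmp2+/+ controls and 11.4, 5.13 and 10.2 TPM in Bmp2+/+ Kl/Kl. With ∆UCS it was 7.22, 5.24, 9.46 and 8.29 TPM in controls and 4.8, 7.0, 5.3 and 9.09 TPM in Kl/Kl, and groups overlapped in both arms. Its difference was -0.85 (95% interval -1.65 to -0.06), and -0.49 without Bmp2+/+ Kl/Kl replicate 4. Sost, sclerostin, which restrains Wnt signalling and bone formation, spread from 1.15 to 37.9 TPM over the 15 libraries and had -1.77 (95% interval -3.93 to 0.40). The pseudoreceptor Bambi had -0.58, Twsg1 -0.38 and Fst, follistatin, -0.28, while Grem1, gremlin, had 0.50 and Nbl1 0.66, none past an unadjusted p of 0.05. Nbl1 had -0.06 without Bmp2+/+ Kl/Kl replicate 3, and Bambi -0.12 without replicate 4. Chrdl1, chordin-like 1, under the filter, was 0.136, 0.122, 0.131 and 0.0559 TPM in Bmp2+/+ controls and 0.322, 0.264 and 0.24 TPM in Bmp2+/+ Kl/Kl. With ∆UCS it was 0.236, 0.148, 0.174 and 0.202 TPM in controls and 0.11, 0.23, 0.201 and 0.117 TPM in Kl/Kl, so only the ∆UCS groups overlapped. Its limma voom difference was -1.72 (SE 0.43, adjusted p = 0.593).

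Of the Smads and BMP target genes, 11 of 18 were tested, with a median difference of -0.14 that became 0.12 without ∆UCS Kl/Kl replicate 4 and -0.51 without Bmp2+/+ Kl/Kl replicate 3. Id1, the standard readout of BMP receptor activity, was 53.6, 45.1, 58.7 and 45.0 TPM in Bmp2+/+ controls and 86.3, 75.5 and 133 TPM in Bmp2+/+ Kl/Kl. It was 37.9, 68.6, 50.7 and 44.2 TPM in ∆UCS controls and 63.5, 98.4, 62.0 and 66.0 TPM in ∆UCS Kl/Kl. The Bmp2+/+ groups did not overlap and the ∆UCS groups did, yet limma called neither change, and the difference was -0.40, or 0.01 without Bmp2+/+ Kl/Kl replicate 4. Id3 had 66.2, 43.2 and 64.2 TPM in Bmp2+/+ Kl/Kl and 58.6, 49.6, 35.1 and 30.5 TPM in ∆UCS Kl/Kl, with controls at 21.5 to 38.4 and 27.7 to 40.0 TPM, and a difference of -0.70. Id2 had -0.20, or 0.14 without Bmp2+/+ Kl/Kl replicate 4.

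Hamp2, a hepcidin gene and a BMP-Smad target in liver, gave the largest difference of the 33. It was 0.216, 0.133, 0.187 and 0.0946 TPM in Bmp2+/+ controls and 15.8, 3.43 and 40.6 TPM in Bmp2+/+ Kl/Kl. It was 0.0575, 0.112, 0.17 and 0.108 TPM in ∆UCS controls and 5.46, 5.66, 3.3 and 0.342 TPM in ∆UCS Kl/Kl. All 7 Kl/Kl libraries lay above all 8 controls, and the 2 Kl/Kl groups overlapped. Hamp2 rose by 3.80 with Bmp2+/+ (limma adjusted p = 0.00032), its ∆UCS change was 1.84 (limma adjusted p = 0.0716), and the difference was -1.96 (95% interval -3.45 to -0.47). Without Bmp2+/+ Kl/Kl replicate 4 it was -1.01, and Hamp2 is nearly identical to Hamp, so its level is uncertain. Hey2, a transcription factor downstream of Notch and BMP, had -0.81 (95% interval -1.47 to -0.15), and -0.42 without that library. Its relative Hey1 had 0.72.

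**Figure D3:**
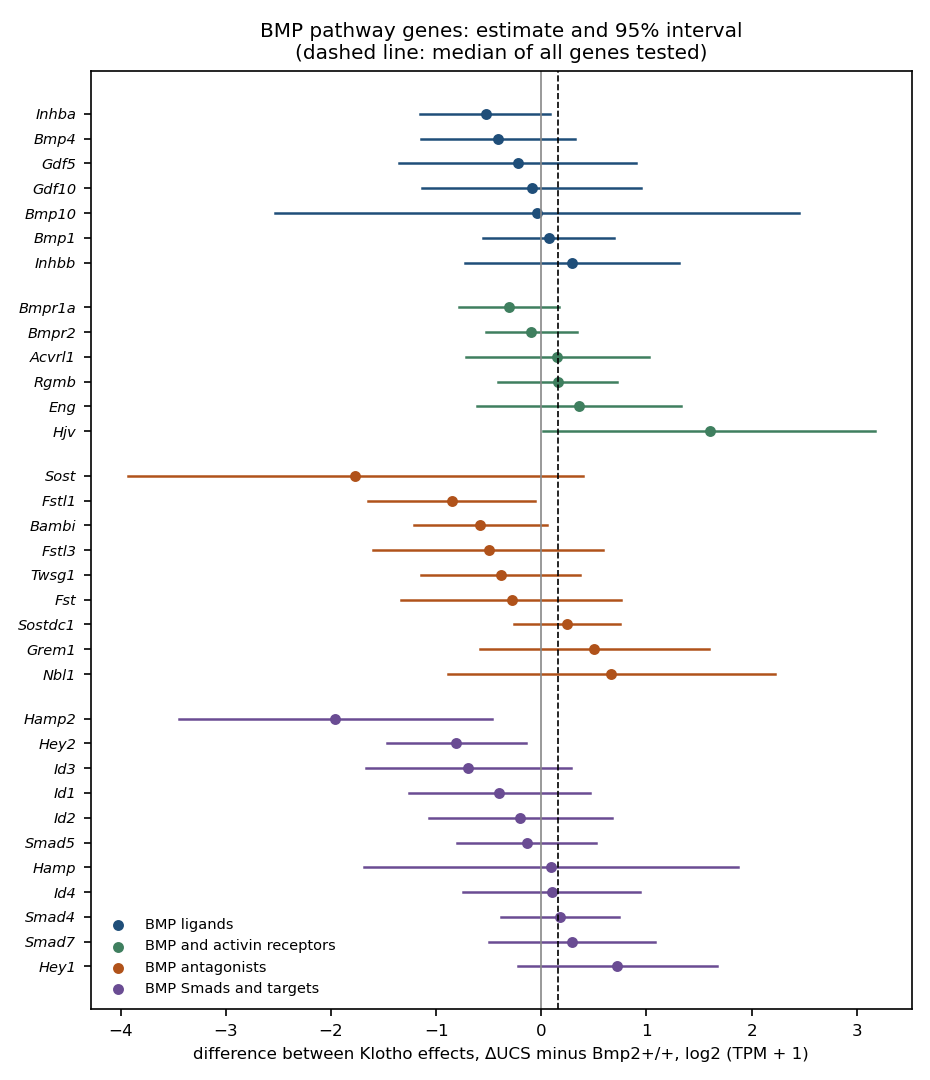
The difference between the Kl/Kl changes (∆UCS minus Bmp2+/+, log2) and its 95% interval for each tested BMP pathway gene, grouped by role. The intervals of Hamp2, Fstl1, Hey2 and Hjv exclude 0, and those of the other 29 genes include it.

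Genes of TGF-beta signalling, elastic fibres and smooth muscle contraction had negative medians. Of 17 TGF-beta ligands, receptors and targets, 12 were tested, 9 of them negative, with a median difference of -0.23 that became 0.02 with only the libraries named in the spelling of the ∆UCS ones. Ccn2, a relative of Ccn1, had -1.14, which became 0.31 without Bmp2+/+ Kl/Kl replicate 4. Tgfbr1, the TGF-beta type I receptor, rose by 0.90 with Bmp2+/+ (limma adjusted p = 0.0226), with a difference of -0.51, or -0.19 without that library.

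Of 16 elastic fibre genes, 12 were tested, 9 of them negative, with a median of -0.10 that became 0.24 without Bmp2+/+ Kl/Kl replicate 2. Lox, lysyl oxidase, which crosslinks elastin and collagen, was 3.41, 2.83, 2.28 and 2.2 TPM in Bmp2+/+ controls and 7.55, 5.25 and 11.6 TPM in Bmp2+/+ Kl/Kl. With ∆UCS it was 3.44, 4.08, 7.06 and 5.81 TPM in controls and 2.65, 6.36, 7.42 and 6.08 TPM in Kl/Kl. The Bmp2+/+ groups did not overlap, the ∆UCS groups did, and the ∆UCS controls lay above the Bmp2+/+ controls. The Lox difference was -1.21 (95% interval -2.14 to -0.28), and limma called neither arm. Eln, elastin, had -1.12, and Mfap4 and Fbln5, which bind elastic fibres, -1.11 and -0.55. Leaving out Bmp2+/+ Kl/Kl replicate 2 took Eln to -0.40, and leaving out replicate 4 took Mfap4 to -0.51.

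Contractile smooth muscle genes had a median difference of -0.60, with 18 of 22 tested and 12 negative. None was called in either arm. Cald1, caldesmon, had Kl/Kl values of 3.29, 1.68 and 2.85 TPM with Bmp2+/+ and 1.19, 1.6, 2.08 and 1.88 TPM with ∆UCS. Its controls were 1.61, 1.65, 1.14 and 0.675 TPM with Bmp2+/+ and 2.39, 1.69, 2.75 and 2.14 TPM with ∆UCS, which did not overlap. The difference was -0.93 (95% interval -1.50 to -0.36). Tagln, transgelin, had -1.36, or -0.41 without Bmp2+/+ Kl/Kl replicate 4, and Cav1, caveolin-1, -0.69, whereas Des, desmin, shared with skeletal and heart muscle, had 2.40 (95% interval 0.27 to 4.53). The list's median was -0.07 without Bmp2+/+ Kl/Kl replicate 4.

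Of 22 macrophage genes 15 were tested, and limma called 6 of them higher in Kl/Kl in each arm. The share over all genes was 1.04% with Bmp2+/+ and 0.537% with ∆UCS. The median change of the 15 macrophage genes was 1.18 with Bmp2+/+ and 1.40 with ∆UCS, and the median difference was -0.13. That value was 0.52 without Bmp2+/+ Kl/Kl replicate 4 and -0.60 without replicate 3, so its direction rests on 1 library. The mean log2 level of the list was 1.67 to 3.08 in Bmp2+/+ controls and 3.22 to 4.35 in Bmp2+/+ Kl/Kl. It was 1.74 to 2.75 in ∆UCS controls and 3.02 to 4.22 in ∆UCS Kl/Kl, so neither Kl/Kl group overlapped its controls, and the 2 Kl/Kl groups covered nearly the same range.

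Genes of lipid-associated macrophages, a state that takes up lipid and debris, had mostly negative differences, although their median changes were nearly equal. All 16 passed the filter, and limma called 9 higher with Bmp2+/+ and 7 with ∆UCS (1.04% and 0.537% of all genes). The median Kl/Kl change was 1.32 with Bmp2+/+ and 1.29 with ∆UCS. Of the 16 differences 13 were negative, beside 32.7% of all genes, with a median of -0.51. The median was -0.15 without Bmp2+/+ Kl/Kl replicate 4 and -0.03 with all 24 libraries as labelled. Trem2, the lipid-sensing receptor that marks this state, was 7.77, 2.06 and 6.06 TPM in Bmp2+/+ Kl/Kl and 2.8, 3.07, 2.85 and 1.94 TPM in ∆UCS Kl/Kl, against no more than 0.498 TPM in any control. It rose in both arms, and its difference was -0.61 (95% interval -1.36 to 0.14), or -0.29 without Bmp2+/+ Kl/Kl replicate 2. Fabp5, a fatty acid binding protein that epithelium also makes, went the other way at 1.78, or 0.87 without Bmp2+/+ control replicate 1.

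Of 12 osteoclast genes only 3 were tested. Atp6v0d2, a subunit of the osteoclast proton pump, was 1.68, 1.27 and 1.57 TPM in Bmp2+/+ Kl/Kl and 0.644, 0.845, 1.07 and 0.226 TPM in ∆UCS Kl/Kl, against no more than 0.0119 TPM in controls. The Kl/Kl groups did not overlap, both rises were called, and the difference was -0.58 (95% interval -1.01 to -0.16). Acp5, tartrate-resistant acid phosphatase, had 0.01, with overlapping groups. Among 21 matrix proteases and inhibitors, 15 were tested and 12 were negative, with a median of -0.44 that became -0.11 without Bmp2+/+ Kl/Kl replicate 4. Ctsk, Mmp12 and Mmp3 were lower at an unadjusted p under 0.05, beside 0.994% of all genes. Mmp3, stromelysin-1, rose by 1.2 with Bmp2+/+ (limma adjusted p = 0.0142), its ∆UCS change was 0.46, and the difference was -0.74, or -0.44 without Bmp2+/+ Kl/Kl replicate 4.

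Few genes of bone and calcification were abundant enough to test. Of 18 osteochondrogenic genes 5 were tested, with a median of -0.34 that ran from -1.0 without Bmp2+/+ Kl/Kl replicate 3 to 0.21 without ∆UCS control replicate 4. Of 20 calcification inhibitors and phosphate genes 7 were tested, with a median of -0.01, a range of -0.11 to 0.41, and a median of 0.45 without Bmp2+/+ Kl/Kl replicate 4. Mgp, matrix Gla protein, the artery wall's main calcification inhibitor, was picked after its values were seen. It was 35.3 to 104 TPM in Bmp2+/+ controls, 157 to 580 TPM in Bmp2+/+ Kl/Kl, 64.3 to 95.8 TPM in ∆UCS controls and 255 to 670 TPM in ∆UCS Kl/Kl. Mgp rose by 2.31 and 2.29, both called by limma, a difference of -0.03 (95% interval -1.33 to 1.27), or 0.81 without Bmp2+/+ Kl/Kl replicate 4.

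The positive end of the ranking was mixed, and included genes of tissues that adjoin the aorta along with histone genes and others. The 10 genes with the smallest p in this direction were Reg3g, Krt15, Krt5, Tuba4a, H2ac10, Gpx2, Eno3, H2ac24, Ppp1r14b and Ckm. Krt5 (ENSMUSG00000061527, mm39 chromosome 15, 101615505 to 101621333, minus strand) is the keratin of basal epithelial cells. It was 85.5, 37.5, 9.17 and 50.4 TPM in Bmp2+/+ controls and 16.0, 1.15 and 24.9 TPM in Bmp2+/+ Kl/Kl. It was 1.44, 0.647, 1.29 and 21.2 TPM in ∆UCS controls and 67.7, 57.7, 35.7 and 2.09 TPM in ∆UCS Kl/Kl. Libraries of 1 group spread widely, both arms' groups overlapped, and the difference was 4.47 (95% interval 1.27 to 7.68). Krt15, another basal keratin, had 3.89, and Gpx2, an epithelial glutathione peroxidase, 2.86.

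Of 18 genes listed as airway epithelial, with the basal keratins Krt5 and Krt15 counted among them, 15 were tested. Krt5 did not always move with the airway gene Scgb3a1. It was 1.15 TPM in Bmp2+/+ Kl/Kl replicate 3 and 2.09 TPM in ∆UCS Kl/Kl replicate 4, where Scgb3a1 was 235 and 442 TPM. Whether these keratins came from airway was not tested. All 15 had a positive difference, beside 67.3% of all genes, and the median was 1.92. At an unadjusted p under 0.05, 4 were higher (1.07% of all genes were), the already picked Krt5 and Krt15 among them. Limma called 2 higher in ∆UCS males (0.537% of all genes). The summed TPM of the list was 592 to 2080 in Bmp2+/+ controls, 698 to 2920 in Bmp2+/+ Kl/Kl, 19.1 to 1070 in ∆UCS controls and 1190 to 2840 in ∆UCS Kl/Kl. The lowest of these was ∆UCS control replicate 1, and without it the median was 1.11.

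Skeletal muscle genes behaved alike, with all 15 of 15 positive and a median of 2.11, or 1.37 without Bmp2+/+ control replicate 1. At an unadjusted p under 0.05, 2 were higher, beside 1.07% of all genes. Ckm, muscle creatine kinase, was 60.3, 19.8, 10.2 and 45.4 TPM in Bmp2+/+ controls and 23.8, 1.15 and 16.2 TPM in Bmp2+/+ Kl/Kl. It was 2.05, 1.26, 15 and 22.1 TPM in ∆UCS controls and 12.5, 33.2, 41.7 and 8.01 TPM in ∆UCS Kl/Kl, with all groups overlapping. Ckm had a difference of 2.97 (95% interval 0.44 to 5.51), and Eno3, muscle enolase, had 2.55. The list's summed TPM was 90.1 to 1030, 17.0 to 360, 11.1 to 364 and 59.5 to 655 in the same order of groups. Of 15 cardiomyocyte genes 12 were tested and 11 were positive, with a median of 1.63, or 0.92 without ∆UCS control replicate 1, and their summed TPM ran from 34.9 to 3000 over the 15 libraries. In the airway, skeletal muscle and cardiomyocyte lists the median level was lower in ∆UCS controls than in Bmp2+/+ controls. For cardiomyocyte genes it was 3.42 against 4.75 in mean log2 level. The controls therefore contribute to the difference along with the Kl/Kl libraries. How much of these tissues was dissected with each aorta was not measured, and its part in these values was not tested.

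Of 17 T and NK cell genes 11 were tested, all 11 positive, with a median of 1.94. Here too the median level was lower in ∆UCS controls (0.67) than in Bmp2+/+ controls (1.78). Cd8a, the co-receptor of cytotoxic T cells, was 33.6, 0.137, 7.94 and 0.798 TPM in Bmp2+/+ controls and 0.273, 0.721 and 1.91 TPM in Bmp2+/+ Kl/Kl. It was 0.329, 0.989, 0.315 and 3.7 TPM in ∆UCS controls and 62.3, 2.52, 0.348 and 0.918 TPM in ∆UCS Kl/Kl. Single libraries, ∆UCS Kl/Kl replicate 1 and Bmp2+/+ control replicate 1, were far above their groups, and without the former the list's median was 1.06. The histone genes H2ac10 and H2ac24 had differences of 3.94 and 3.5. Both were highest in those same 2 libraries, H2ac10 at 50.8 and 40.3 TPM and H2ac24 at 102 and 73.3 TPM. H2ac genes are near-identical copies with uncertain values.

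**Figure D4:**
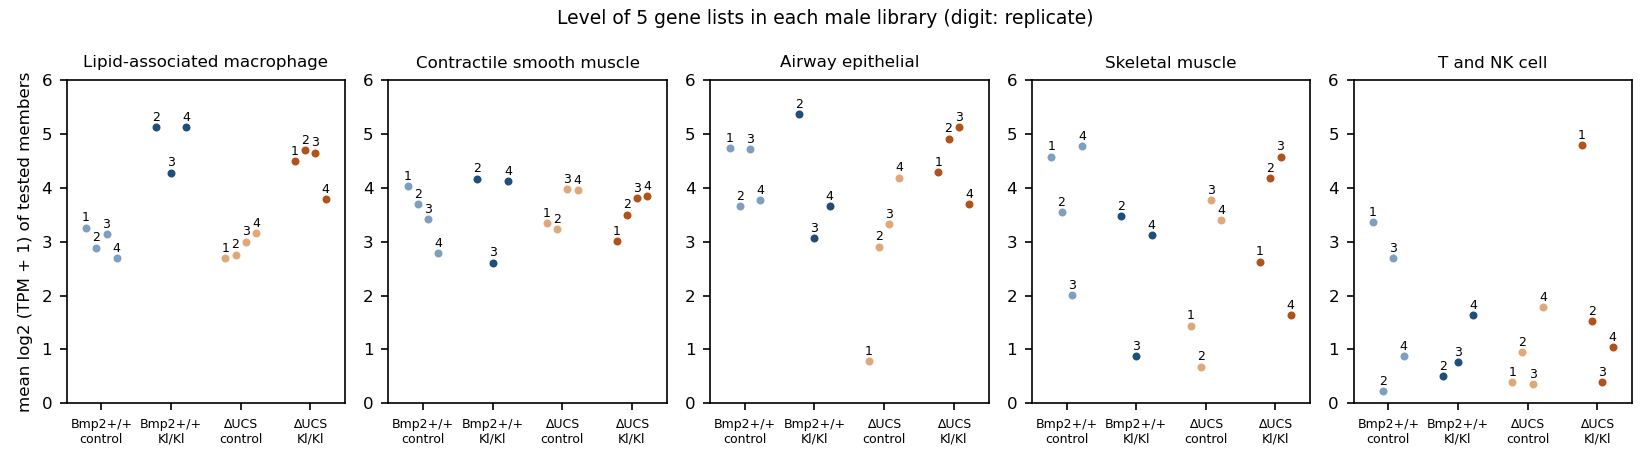
Mean log2(TPM + 1) of the tested genes of 5 lists in each of the 15 libraries, by group, with 1 point per library and its replicate number. Lipid-associated macrophage levels separate Kl/Kl from controls in both arms (4.28 to 5.12 and 3.79 to 4.70 against at most 3.26), whereas contractile levels overlap and airway, skeletal muscle and T cell scores spread widely within groups, with ∆UCS control replicate 1 lowest for airway genes (0.78) and ∆UCS Kl/Kl replicate 1 highest for T cell genes (4.79).

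Genes of fat and of mitochondria had list medians from -0.34 to 0.42, beside 0.16 for all genes. Of 24 fatty acid and triglyceride synthesis genes 22 were tested, 18 of them negative beside 32.7% of all genes, with a median of -0.34. Limma called 4 lower with ∆UCS and 1 lower with Bmp2+/+ (0.112% and 0.0608% of all genes). Acaca, acetyl-CoA carboxylase, was 2.76, 1.83, 4.91 and 1.89 TPM in ∆UCS controls and 0.315, 0.387, 0.256 and 0.688 TPM in ∆UCS Kl/Kl, and fell by 1.39 (limma adjusted p = 0.0407). Its Bmp2+/+ change was -0.47, since Bmp2+/+ Kl/Kl replicate 2 stayed at 1.83 TPM beside 0.365 and 0.246 TPM, and the difference was -0.92 (95% interval -1.87 to 0.04). The list's median was 0.17 without that library. Adipocyte genes had a median of -0.19 (17 of 17 tested), which was 0.09 without it too. Brown adipocyte genes had 0.42 (12 of 16), or 0.09 without ∆UCS Kl/Kl replicate 2, nuclear oxidative phosphorylation genes 0.17 (42 of 46) and mitochondrially encoded genes -0.11 (15 of 15). The last was 0.04 without Bmp2+/+ Kl/Kl replicate 3, and the one before it -0.02 without ∆UCS Kl/Kl replicate 4.

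Of the 43 lists in all, 42 had at least 3 tested members. The lists with a median over 1 numbered 5, and those under -0.4 numbered 4. MHC class II genes, which present antigen, had 0.77 with 8 of 9 positive, and interferon-stimulated genes 0.45 with 8 of 9 positive, beside 67.3% of all genes. The MHC class II median was 0.11 without ∆UCS Kl/Kl replicate 1 and 1.77 without Bmp2+/+ Kl/Kl replicate 4, and the interferon median was 0.10 without Bmp2+/+ Kl/Kl replicate 3. Complement genes had -0.23, collagen genes -0.19, endothelial genes 0.14 and fibroblast genes 0.30. Each of these changed sign when 1 Bmp2+/+ Kl/Kl library was left out, replicate 2 for complement (0.09) and collagen (0.25), and replicate 3 for endothelial (-0.29) and fibroblast (-0.14) genes.

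**Figure D5:**
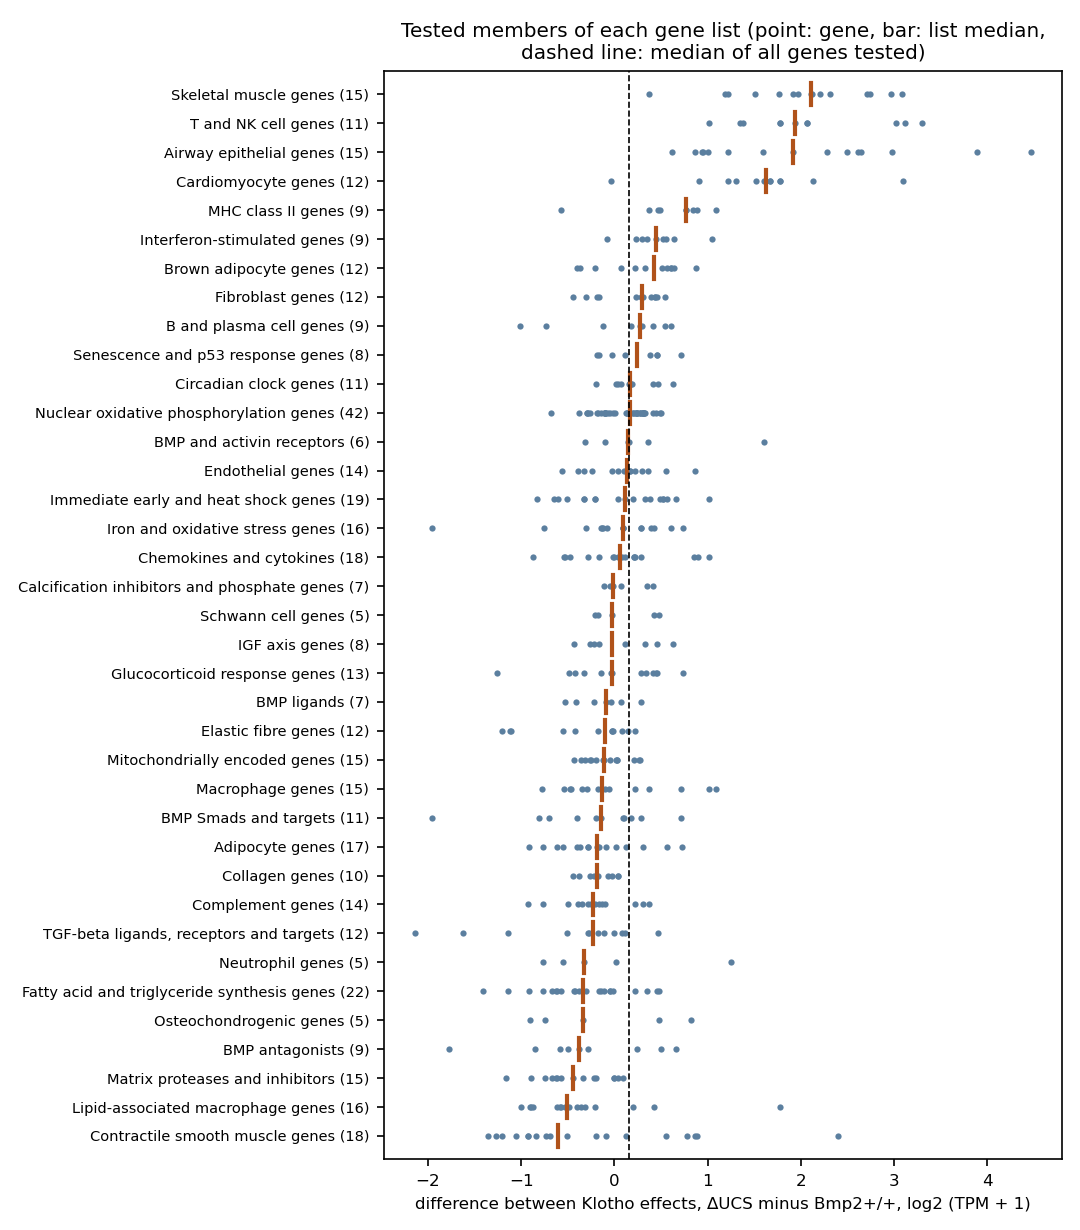
Difference between the Kl/Kl changes (log2) for each tested member (points) of the lists with at least 5 tested members, with a bar at each list's median and a dashed line at the median of all 9861 genes (0.16). Skeletal muscle, T cell, airway and cardiomyocyte lists lie to the right, and contractile, lipid-associated macrophage and protease lists to the left.

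The library kept out of the comparison would have changed these values. In the male Bmp2+/+ Kl/Kl replicate 1, Spp1 was 0.459 TPM, within the range of the Bmp2+/+ controls. Of the 10 genes with the largest rise in females, 0 were above every Bmp2+/+ control in that library, whereas 10, 9 and 8 were in replicates 2, 3 and 4. With all 24 libraries as labelled, limma again called 0 genes for the difference, and the Spp1 difference was 0.73 in place of -0.90.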

How the data were processed

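The authors deposited 1 table of TPM for 24 aorta libraries, and the submitters' processing notes name Partek and mm39, with no aligner, annotation or strand setting given in the sources used here. Every column sums to 482073, 0 columns were left unused, and no 2 libraries were identical. TPM values follow gene span with introns, and a constant of 0.0001 read had been added, from which reads were estimated (73.2% of 256333 values of 0.5 to 20 reads lay within 0.05 of a whole number). Depth was 20593000 to 61109000 reads, so low or short genes are the least precise.

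Genes with TPM of at least 1 in at least 4 libraries were tested on log2(TPM + 1) with limma 3.58.1 (eBayes with a trend) in R 4.3.3. Changes of low genes are understated on this scale. The fit held 22 libraries, 15 male and 7 female, with 6 group means and the spelling of library names as a term. It left out 2 libraries whose sex-linked transcripts went against their labels. P-values are two-sided and adjusted by Benjamini-Hochberg over all genes, with a threshold of 0.05. The procedure was also run on simulated counts drawn independently for each gene. These lack the swings between libraries that many genes share here, so they cannot show how the fit behaves with such swings. The other settings were median-of-ratios scaling, voom on estimated reads, other filters, pseudocount, covariates and library subsets, and leaving out each library.

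Named genes are Bmp2, Kl, the 10 with the smallest p in each direction and the 10 with the largest fold in females, all at a mean of at least 5 TPM in a group, up to 4 members of a list by p, and any tested BMP gene; no gene lower in females qualified. Predicted genes and immunoglobulin segments were left out. List members named beyond these were chosen after their values were seen. The comparison and the gene lists were chosen with earlier results of these data known. 1 list member is not reported here.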

Additional observations from a re-analysis of the deposited data

Results flagged for a closer look

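In groups of 4 libraries, a library can be set apart by its gap to the nearest other one, and chance does this in about 1 of 20 groups. Among the named genes, 9 of 93 groups held such a library. These genes share libraries and most were picked by p or fold, so that rate cannot judge this count. In ∆UCS Kl/Kl, Bmp2 was high in replicate 2 at 1.17 TPM, and Mpeg1 and Cd68 were low in replicate 4 at 6.76 and 15.9 TPM. In ∆UCS controls, replicate 4 was high for the basal keratin Krt5 at 21.2 TPM, for the histone gene H2ac24 at 7.67 TPM and for Dpep2 at 0.314 TPM. Cav2 was high in ∆UCS control replicate 3 at 22.4 TPM, and Scgb3a1 was low in replicate 1 at 2.61 TPM. In Bmp2+/+ controls, C3ar1 was high in replicate 1, the only Klotho+/+ animal, at 0.698 TPM.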

How the results depend on the processing

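The difference had 0 called genes under all 36 settings. For the 31 named genes, 370 values of the difference under settings that leave out no single library kept their direction and 9 changed sign. Since no gene was called under any setting, only the direction could change. Genes at an unadjusted p under 0.05 (204 as reported) numbered 103 in the 15 males alone, 523 in libraries of the ∆UCS spelling, 540 with median-of-ratios scaling, 1861 with voom, 1079 with no filter and 66 at a TPM of at least 5. Settings added after seeing the data gave 718 (median-of-ratios scaling in that spelling) and 1966 (median-of-ratios scaling, no filter, pseudocount of 0.1). Calls in the ∆UCS arm (64) numbered 0 with all 24 libraries, 35 in males alone, 101 without the spelling term, 155 in that spelling, 166 with median-of-ratios scaling, 265 with voom, 324 at a TPM of at least 5, and 200 and 173 in the added settings. Calls in the Bmp2+/+ arm (109) numbered 0 with all 24 libraries, 60 in males alone, 12 in that spelling, 339 with voom, 48 at a TPM of at least 5, and 20 and 238 in the added settings. Calls in females (259) numbered 0 with all 24 libraries, 703 with voom, 988 with no filter, 130 at a TPM of at least 5 and 791 in the added setting. The causes were not tested.

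The macrophage median was 0.52 in that spelling, the lipid-associated macrophage median -0.03 with all 24 libraries and -0.15 in that spelling, and the T and NK cell median 3.62 with voom. Differences changed sign with all 24 libraries for Spp1 (0.73), Mmp12 (0.05), Gpnmb (0.08), Cd68 (0.25) and Lyz2 (0.24), in that spelling for Cd68 (0.30) and Lyz2 (0.63), with median-of-ratios scaling in that spelling for Lyz2 (0.25), and with voom for Kl (0.45), at 0 to 30 reads. Leaving out 1 library gave 138 (∆UCS control replicate 1) to 932 (Bmp2+/+ Kl/Kl replicate 4) genes at an unadjusted p under 0.05, 38 to 387 calls in the ∆UCS arm, 36 (Bmp2+/+ Kl/Kl replicate 4) to 410 (replicate 3) in the Bmp2+/+ arm and 126 to 605 in females. The macrophage median ranged from -0.60 to 0.52, the lipid-associated one from -0.70 to -0.15, Cd68 from -1.03 to 0.30, Lyz2 from -0.60 to 0.63 and Ccl8 from -0.36 to 0.72. With a replicate block the difference had 0 calls and 194 genes at an unadjusted p under 0.05, and the arms had 50 and 97 calls. Samples of the same replicate number were no more alike than others. Of 21 same-numbered pairs 8 had a correlation over 0.1 (median -0.0747, range -0.511 to 0.438). Of 63 pairs with other numbers 27 did (median 0.037, range -0.622 to 0.614).

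The intervals limit what 3 and 4 animals a group can show, and genes of low TPM have the fewest reads behind them. The spelling of library names and the Bmp2 genotype overlap, since no ∆UCS library has the other spelling.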
